A study of Mus musculus with 15 samples.

Results

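The reactive astrocyte genes followed here are 10 mouse genes, Gfap, Vim, Serpina3n, Lcn2, Steap4, S1pr3, Timp1, Cd44, Osmr and Cp, taken by symbol from a list of transcripts that astrocytes raise after injury or inflammation. Each symbol matched 1 row of the deposited count table, so 10 of its 24454 rows were members, and all 10 passed the filter on low counts that left 15818 genes for testing. Total RNA of the midbrain was sequenced in 15 libraries, 3 in each of 5 groups. Wild-type BDF1 mice (WT) were either controls or received 2 mg of carnosine intranasally. Transgenic Thy1-aSyn mice (TG) carry a transgene under the promoter of the neuronal surface gene Thy1, and were controls, received 2 mg of carnosine intranasally, or received 10 mM carnosine in the drinking water. All mice entered treatment at 2 months of age and were treated for 2 months. Carnosine is a dipeptide of beta-alanine and histidine. The labels do not say what the controls were given, how many animals made a library, or in which cells the transgene is active, and the p-values below therefore measure the spread between libraries, which may be technical.

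Astrocytes answer injury, infection and degeneration by enlarging their intermediate filament skeleton and by turning on a shared set of secreted, surface and metal-handling proteins. Cytokines of the interleukin-6 family, among them oncostatin M, drive much of that set through receptors that pair with gp130 and signal through JAK kinases and STAT3, while interleukin-1 and TNF act through NF-kB. Several of these genes are also active outside astrocytes: Vim, Cd44, Timp1 and Cp in fibroblasts and vessel-associated cells, Lcn2 in neutrophils.

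No member passed an adjusted p of 0.05 in any of 6 comparisons (edgeR quasi-likelihood test, Benjamini-Hochberg adjustment over all 15818 genes). The value nearest to it was for Cp, which encodes the copper-carrying ferroxidase ceruloplasmin, in WT mice given carnosine intranasally: 17.9 ± 5.00 CPM (counts per 1000000 counts of the tested genes, scaled by TMM; mean ± SD, n = 3) against 6.48 ± 0.304 in WT controls, a log2 fold change of 1.47 (SE 0.347, adjusted p = 0.0515). Gfap, the most abundant member, had group means of 766 ± 355 CPM in WT control, 783 ± 77.1 in WT intranasal, 842 ± 281 in TG control, 1047 ± 248 in TG intranasal and 780 ± 115 in TG drinking water (SD, n = 3 each), and all 5 groups overlapped. A p above the threshold does not show that groups are alike, and the interval of each difference is given for the members that the results turn on. In bulk tissue a larger number of astrocytes and more RNA per astrocyte cannot be told apart.

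Library totals ran from 13202199 to 60542423 counts. Thy1, read as a check of the genotype labels, was at 444 to 694 CPM in the 6 WT libraries and at 3297 to 5032 CPM in the 9 TG libraries, with no overlap. The libraries also fell into 2 sets by the most abundant row with no gene symbol. That row held over 1% of counts in 8 libraries (all 6 of WT, TG control 1 and TG control 2). It held under 1% in 7 (TG control 3 and all 6 of TG with carnosine). TG control was the only group with libraries in both sets. WT control 1 and TG control 1 held 718 and 557 CPM of the pituitary hormone gene Gh, and the summed level of 6 choroid plexus genes ranged from 56.3 to 2060 CPM. Across 15081 genes with a known transcript length, the log2 fold change followed length, with a Spearman rho across genes of 0.55 for TG control against WT control, 0.57 for WT intranasal against WT control and -0.60 for the interaction. The summed level of 15 genes of resting astrocytes, the cell type the members are named for, was 11000 to 19500 CPM, and that of 5 midbrain dopamine neuron genes was 172 to 427 CPM.

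The members differed widely in level. Per kilobase of the longest annotated transcript and averaged over the 15 libraries, Gfap stood at 318.5 CPM per kb, Vim at 25.6, Serpina3n at 10.6, Cp at 2.98 and S1pr3 at 1.21. Below 1 CPM per kb came Timp1 at 0.876, Cd44 at 0.591, Lcn2 at 0.508, Osmr at 0.364 and Steap4 at 0.0977. Gfap exceeded Vim in all 15 libraries with no overlap of their ranges, and so did Serpina3n over Cp. Vim exceeded Serpina3n in each of the 15 libraries, although the ranges overlapped (lowest Vim 17.5, highest Serpina3n 19.3 CPM per kb). From Cp downwards every neighbouring pair overlapped: S1pr3 was above Timp1 in 11 libraries, Timp1 above Cd44 in 9 and Lcn2 above Osmr in 8, so that the order among these low genes was not fixed. Gfap alone made up 83.7% to 91.2% of the summed member CPM of a library.

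Regulatory sequence was searched for the letters bound by the factors named above, and 4 upstream windows are shown because they belong to the most abundant member (Gfap), the members nearest to a call (Cp and Cd44) and the only member with a STAT match (Steap4). Each window holds the 250 bases before the transcription start from RefSeq (build GRCm38.p6), written 5′ to 3′ on the gene's strand, with motif letters in capitals.
Gfap, chr11:102897201-102897450, minus strand: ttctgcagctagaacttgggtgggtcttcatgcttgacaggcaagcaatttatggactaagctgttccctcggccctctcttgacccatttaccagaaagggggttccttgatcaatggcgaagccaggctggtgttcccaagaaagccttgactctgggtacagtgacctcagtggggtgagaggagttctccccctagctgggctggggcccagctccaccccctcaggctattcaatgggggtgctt
Cp, chr3:19956804-19957053, plus strand: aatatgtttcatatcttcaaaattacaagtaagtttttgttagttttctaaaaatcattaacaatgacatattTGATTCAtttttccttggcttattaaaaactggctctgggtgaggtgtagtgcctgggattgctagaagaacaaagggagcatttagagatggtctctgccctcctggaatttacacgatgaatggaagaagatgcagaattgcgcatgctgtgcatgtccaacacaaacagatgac
Cd44, chr2:102901666-102901915, minus strand: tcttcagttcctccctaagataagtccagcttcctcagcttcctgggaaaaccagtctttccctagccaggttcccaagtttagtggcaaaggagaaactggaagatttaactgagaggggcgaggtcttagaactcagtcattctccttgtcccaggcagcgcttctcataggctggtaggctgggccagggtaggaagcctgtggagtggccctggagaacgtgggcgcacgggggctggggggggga
Steap4, chr5:7960222-7960471, plus strand: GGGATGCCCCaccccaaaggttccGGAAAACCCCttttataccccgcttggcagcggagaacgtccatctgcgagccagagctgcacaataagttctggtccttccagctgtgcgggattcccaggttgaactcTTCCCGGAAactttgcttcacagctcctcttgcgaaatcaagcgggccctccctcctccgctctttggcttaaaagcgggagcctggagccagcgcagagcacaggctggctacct
The STAT letters searched were TTCNNNGAA, the AP-1 letters TGANTCA, and NF-kB was searched by its 10-letter consensus, all on both strands. Among the 11 windows of the 10 members (Cp has 2 annotated starts), STAT letters occurred in 1, that of Steap4, against 7.02% of 32851 promoter windows of the same length. AP-1 letters occurred in 1, the first start of Cp, against 6.75%. NF-kB letters occurred in 2, Vim and Steap4, against 3.90%, and the Steap4 window held 2 separate NF-kB matches that did not overlap its STAT match. A match is a description of letters, and the windows of Gfap and Cd44 held none of the 3 motifs.

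**Figure D1:**
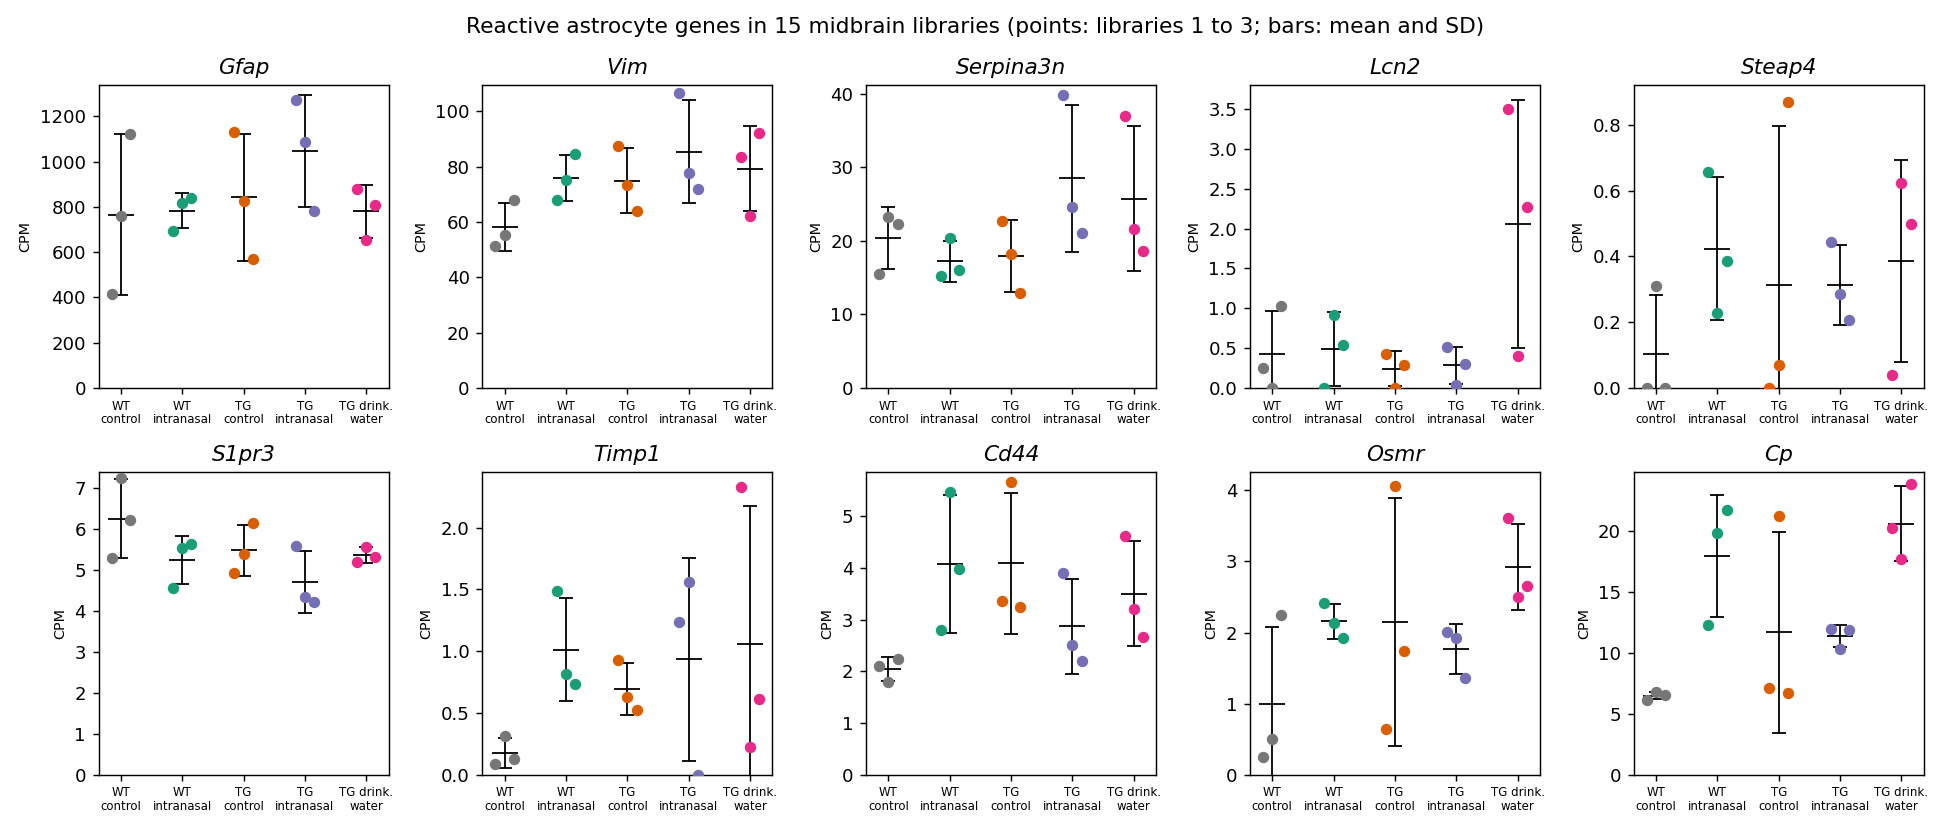
Level of each of the 10 genes in CPM (vertical axes, separate scales from 0) in the 5 groups, with 1 point per library and the group mean with its SD as a bar that is clipped at 0. The 3 WT control libraries of Cp sit between 6.15 and 6.75 CPM, below every WT intranasal library, while all groups of Gfap overlap.

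Gfap encodes the intermediate filament protein that defines reactive astrocytes in histology. Its level was 414, 760 and 1123 CPM in WT control 1 to 3, 695, 816 and 838 in WT intranasal, 1131, 827 and 569 in TG control, 1272, 1087 and 782 in TG intranasal, and 878, 653 and 808 in TG drinking water. The lowest and one of the highest libraries were both WT controls, and the lowest, WT control 1, was one of the 2 libraries rich in Gh. TG control differed from WT control by a log2 fold change of 0.14 (95% interval -0.50 to 0.77), and TG intranasal from TG control by 0.32 (-0.32 to 0.95). Leaving out WT control 1 turned the genotype value to -0.16, and leaving out WT control 3 raised it to 0.52.

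Vim encodes vimentin, the partner filament of GFAP. Its level was 51.2, 55.3 and 68.0 CPM in WT control, 68.0, 75.4 and 84.6 in WT intranasal, 87.6, 73.3 and 64.1 in TG control, 107, 77.8 and 72.0 in TG intranasal, and 83.7, 62.2 and 92.1 in TG drinking water. WT intranasal lay above WT control in all 3 libraries, though its lowest library all but touched the highest control, and the TG groups overlapped one another. The log2 fold change of WT intranasal against WT control was 0.39 (-0.01 to 0.78; SE 0.188, adjusted p = 0.223). Gfap and Vim were the most alike pair of members: their log2 CPM, each centred on its own mean, differed by a root mean square of 0.268 over the 15 libraries.

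Serpina3n encodes a secreted serine protease inhibitor. Its level was 15.5, 23.2 and 22.3 CPM in WT control, 15.2, 20.4 and 16.1 in WT intranasal, 22.7, 18.2 and 12.9 in TG control, 39.9, 24.6 and 21.0 in TG intranasal, and 37.0, 21.6 and 18.7 in TG drinking water. Replicate 1 of each carnosine-treated TG group stood high, TG intranasal 2 lay just above the highest control (24.6 against 23.2 CPM), and the remaining treated libraries lay among the controls. TG intranasal against TG control gave a log2 fold change of 0.67 (0.06 to 1.28; SE 0.288, unadjusted p = 0.0331 and adjusted p = 0.51, edgeR), and leaving out TG intranasal 1 took it to 0.35. Serpina3n belongs to a cluster of related genes on chromosome 12, and reads that the counting could have divided among them make its level uncertain. Serpina3g held 0 to 92 counts a library and Serpina3n 184 to 1254. In TG drinking water 1, Serpina3h held 100 and Serpina3m 37 counts, against at most 9 and 10 in the other libraries.

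Lcn2 encodes lipocalin-2, an iron-siderophore binding protein of reactive astrocytes that is also stored in neutrophil granules. Its level was 0.253, 0 and 1.03 CPM in WT control, 0, 0.917 and 0.540 in WT intranasal, 0.428, 0 and 0.290 in TG control, 0.508, 0.0410 and 0.296 in TG intranasal, and 3.50, 0.401 and 2.27 in TG drinking water. Drinking water 1 and 3, with 87 and 41 counts, were the highest of the 15 libraries, and drinking water 2, with 9 counts, lay among the others. The 3 libraries without a count had floors, at 3 counts, of 0.186 CPM in WT control 2, 0.104 in WT intranasal 1 and 0.210 in TG control 2. Against TG control the log2 fold change was 3.07 (0.25 to 5.89; SE 1.33, unadjusted p = 0.0347 and adjusted p = 0.559, edgeR). Beside it, the summed level of 5 neutrophil genes (S100a8, S100a9, Ngp, Camp and Ltf) was 17.4, 7.31 and 34.2 CPM in TG drinking water 1 to 3 and 1.18 to 14 CPM in the other 12 libraries. In drinking water 1, S100a8 and S100a9 were at 9.37 and 7.16 CPM, and Ngp, Camp and Ltf at only 0.362, 0.121 and 0.362. Ngp lay below all WT controls there (1.35 to 2.02 CPM). In drinking water 3 the same genes were at 11.6, 10.9, 6.43, 2.60 and 2.71 CPM. All 5 genes had positive log2 fold changes against TG control, with a median of 3.25. EdgeR called none of them, and 4 had an unadjusted p under 0.05, against 8.07% of all genes. DESeq2 gave no adjusted p for any of them. What part neutrophils had in the Lcn2 value was not tested. The same Lcn2 libraries set the comparison of the routes: TG intranasal against drinking water was -2.82 (-5.45 to -0.18; adjusted p = 0.666, edgeR).

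Cp was read at 6.15, 6.75 and 6.54 CPM in WT control, 12.2, 19.8 and 21.7 in WT intranasal, 7.13, 21.2 and 6.67 in TG control, 11.9, 10.3 and 11.8 in TG intranasal, and 20.3, 17.7 and 23.8 in TG drinking water. WT controls were the tightest group and lay below all WT intranasal libraries. TG control 2 stood at 21.2 CPM, more than its companions and near the drinking water group, and every drinking water library lay above every TG intranasal library. Cp shares exon sequence on the opposite strand with Hps3, a gene of lysosome-related organelles, and the strand setting of the counting is not given in the sources used here. Hps3 itself stayed within 9.90 and 17.3 CPM over all 15 libraries, with its highest value also in TG control 2.

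Steap4 encodes a metalloreductase that reduces iron and copper. Its level was 0, 0.309 and 0 CPM in WT control, 0.657, 0.229 and 0.386 in WT intranasal, 0, 0.0699 and 0.870 in TG control, 0.445, 0.287 and 0.207 in TG intranasal, and 0.0402, 0.624 and 0.499 in TG drinking water. At most 19 counts a library lay behind these values and 3 libraries had none, where 3 counts would be 0.253 CPM in WT control 1, 0.192 in WT control 3 and 0.214 in TG control 1. No order among the groups was detectable at this depth: the interval of WT intranasal against WT control ran from -0.97 to 4.71 on the log2 scale. Such floors cover counting error only, since the labels describe no molecular identifiers, while the intervals of fold changes come from the spread between libraries in edgeR.

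Timp1 encodes a tissue inhibitor of metalloproteinases. Its level was 0.0842, 0.309 and 0.128 CPM in WT control, 1.49, 0.818 and 0.733 in WT intranasal, 0.927, 0.629 and 0.522 in TG control, 1.24, 1.56 and 0 in TG intranasal, and 2.33, 0.223 and 0.609 in TG drinking water. WT control held 1, 5 and 2 counts, and both WT intranasal and TG control lay above it in all 3 libraries. TG intranasal 3 had no Timp1 count, although that library was the deepest after WT intranasal 2, and 3 counts would be 0.0889 CPM there. The log2 fold change was 2.46 for WT intranasal against WT control (-0.01 to 4.93) and 1.91 for TG control against WT control (-0.63 to 4.46). Timp1 lies within Syn1 on the opposite strand with no shared exon.

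Cd44 encodes the surface receptor for hyaluronan. Its level was 2.11, 1.79 and 2.25 CPM in WT control, 2.80, 5.47 and 3.97 in WT intranasal, 3.35, 5.67 and 3.25 in TG control, 3.91, 2.50 and 2.19 in TG intranasal, and 4.62, 3.21 and 2.66 in TG drinking water. WT controls lay below all WT intranasal and all TG control libraries, and the 3 TG groups overlapped one another. TG control against WT control gave a log2 fold change of 0.99 (0.22 to 1.77; SE 0.366, adjusted p = 0.198, edgeR). WT intranasal against WT control gave 1.00 (0.24 to 1.76; SE 0.36, adjusted p = 0.117, edgeR).

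Osmr encodes the receptor subunit that binds oncostatin M. Its level was 0.253, 0.495 and 2.25 CPM in WT control, 2.42, 2.13 and 1.93 in WT intranasal, 0.642, 4.06 and 1.74 in TG control, 2.00, 1.93 and 1.36 in TG intranasal, and 3.62, 2.50 and 2.66 in TG drinking water. Drinking water lay above TG intranasal in all libraries, and both control groups spread widely, with WT control 1 and 2 and TG control 1 lowest. Leaving out WT control 3 moved the genotype value from 1.07 to 2.47 on the log2 scale, and leaving out TG control 2 moved it to 0.25. S1pr3 encodes a receptor for sphingosine 1-phosphate and was the steadiest member, at 5.31, 7.24 and 6.22 CPM in WT control, 4.57, 5.53 and 5.63 in WT intranasal, 4.92, 5.39 and 6.15 in TG control, 5.59, 4.35 and 4.21 in TG intranasal, and 5.19, 5.57 and 5.32 in TG drinking water. Its groups overlapped in all 5 comparisons of 2 groups, and its largest difference was -0.26 (-0.72 to 0.21) for WT intranasal against WT control. An antisense non-coding RNA gene shares exon sequence with S1pr3, and its reads could not be told apart without strand.

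The genotype comparison, TG control against WT control, addresses whether the transgene alone moved these genes. Of the members, 7 had a positive and 3 a negative log2 fold change; the median was 0.60, against 0.02 over all genes tested. None was called, against 0.0126% of all genes (2 genes). DESeq2 called none of the 6 members for which it gave an adjusted p, against 3.19% of such genes; its filter on mean counts left Lcn2, Steap4, Timp1 and Osmr without one. In all, 2 members, Cd44 and Cp, had an unadjusted p under 0.05 in edgeR, where 18.1% of all genes did. Timp1 and Cd44 were higher without overlap, against 7.37% of all genes, and none was lower without overlap, against 9.07%. The Cp value rested on TG control 2: its log2 fold change of 0.84 (SE 0.35, adjusted p = 0.232, edgeR) was 0.09 without that library. The median of the members was 0.40 when TG control 3 was left out, so that all compared libraries came from the set with over 1% in the unnamed row, and 0.20 without TG control 2. Beside these values, the summed level of 8 meningeal fibroblast genes was 145, 203 and 118 CPM in TG control and 93.0, 84.8 and 96.0 CPM in WT control, without overlap. All 8 were higher, with a median log2 fold change of 0.90; edgeR called none, 5 had an unadjusted p under 0.05 and DESeq2 called 3. The part of these cells in the member values was not tested.

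Intranasal carnosine in WT mice was compared with WT control. Of the members, 8 were higher and 2 lower, with a median log2 fold change of 0.69 against 0.02 over all genes. None was called, against 1.01% of all genes (159 genes). An unadjusted p under 0.05 was found for Cp and Cd44, against 24% of all genes. Vim, Timp1, Cd44 and Cp were higher without overlap, against 13.2%, and none was lower, against 13.4%. Cp had a log2 fold change of 1.47 (0.73 to 2.20) and was the single member that DESeq2 called (adjusted p = 0.00258), where it called 10.8% of the genes with an adjusted p and gave none for Lcn2, Steap4 and Timp1. Its adjusted p in edgeR ranged from 0.0279 to 0.277 as single libraries were left out, and fell under 0.05 without WT intranasal 1. All 6 libraries belonged to the same set by the unnamed row.

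Markers of meningeal fibroblasts moved in the same libraries. The summed level of the same 8 genes was 135, 256 and 283 CPM in WT intranasal, above every WT control. All 8 were higher, with a median log2 fold change of 1.20, and Fmod, Aebp1 and Col1a2 rose past the threshold (log2 fold changes of 2.31, 1.61 and 1.23, adjusted p = 0.0467, 0.0467 and 0.0476 in edgeR). In this comparison edgeR called 1.01% of all genes. These 3 calls were lost without WT control 1 (adjusted p = 0.23, 0.23 and 0.265). They were lost without WT intranasal 2 or WT intranasal 3 (adjusted p = 0.244 and 0.277 for each gene). The same held when the 6 WT libraries were fitted alone (adjusted p = 0.0595 for each) and with the term for the set of libraries (adjusted p = 0.0584 for each), all in edgeR. In TG control the summed level was highest in TG control 2, where Cp was also high. It was 165, 185 and 308 CPM in TG drinking water, and 249, 179 and 161 CPM in TG intranasal, where Cp was at 10.3 to 11.9 CPM. What part these cells had in the Cp, Cd44, Vim and Timp1 values was not tested. Endothelial genes summed to 109 to 132 CPM in WT control and 133 to 148 CPM in WT intranasal.

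**Figure D2:**
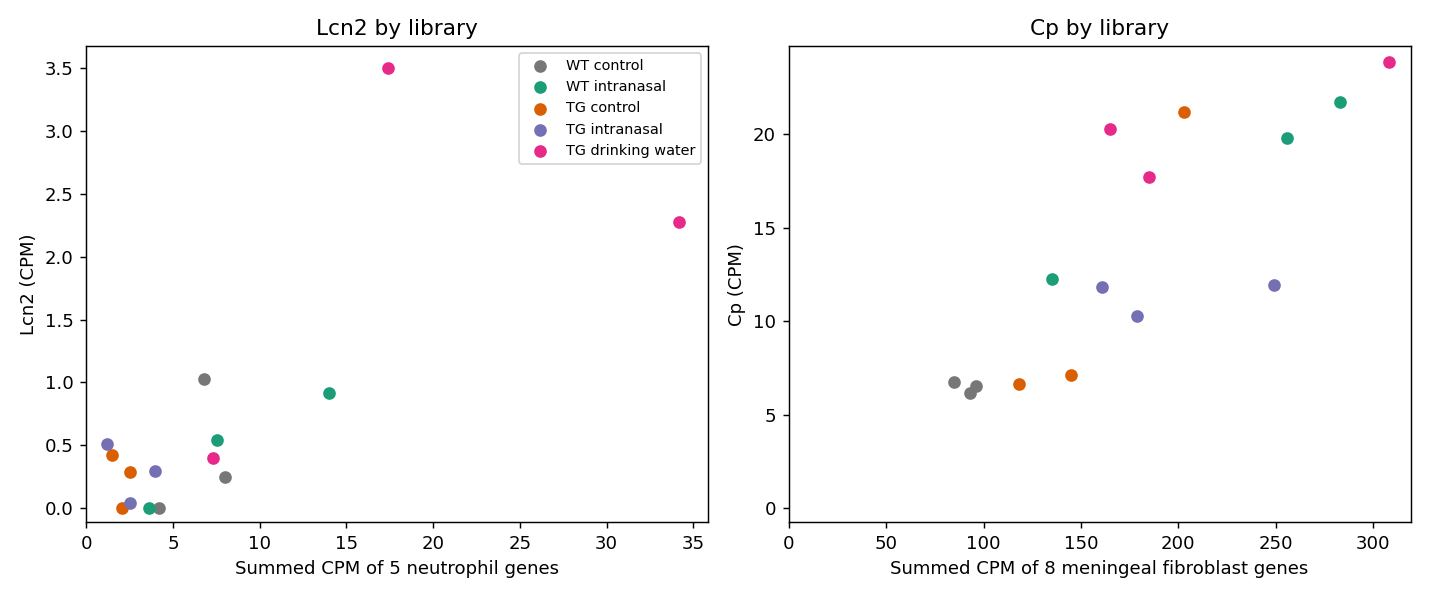
Lcn2 against the summed CPM of 5 neutrophil genes (left) and Cp against the summed CPM of 8 meningeal fibroblast genes (right), 1 point per library coloured by group, linear axes in CPM. TG drinking water 1 and 3 stand apart on the left at 3.50 and 2.27 CPM of Lcn2; on the right the WT controls sit lowest on the fibroblast axis, TG control 3, at 6.67 CPM of Cp, lies among them on the Cp axis, and TG control 2 lies with the carnosine groups.

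In TG mice, intranasal carnosine left the members without a common direction. Against TG control, 5 were higher and 5 lower, with a median log2 fold change of 0.08 against -0.003 over all genes. None was called by edgeR, against 0.00632% of genes (1 gene), or by DESeq2, against 0.12%. Only Serpina3n had an unadjusted p under 0.05, against 9.74% of genes. The groups of every member overlapped, where 5.95% of genes were higher and 5.86% lower without overlap. All TG intranasal libraries and TG control 3 belonged to the set with under 1% in the unnamed row, and TG control 1 and 2 to the other, so the set and the treatment largely coincide here.

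Carnosine in the drinking water gave 7 higher and 3 lower members against TG control, with a median of 0.34 against 0.005 over all genes. All drinking water libraries and TG control 3 belonged to the set with under 1% in the unnamed row. TG control 1 and 2 belonged to the other, so the set and the treatment largely coincide here too. With a term for the set the median of the members was 0.60. None was called by edgeR, against 0.00632% of genes (1 gene). DESeq2 gave an adjusted p for 2 members, Gfap and Vim, and called neither, against 3.68% of the genes with one; its filter left the other 8, Lcn2 and Cp among them, without a call in either direction. Lcn2 and Cp had an unadjusted p under 0.05, against 8.07%. No member was free of overlap, where 6.44% of genes were higher and 8.22% lower without overlap. Cp had a log2 fold change of 0.82 (0.11 to 1.54; SE 0.337, adjusted p = 0.518, edgeR), which was 1.58 without TG control 2 (SE 0.243, adjusted p = 0.0525) and 0.55 without TG control 3. For Lcn2, leaving out drinking water 1 gave 2.44 and leaving out drinking water 2 gave 3.56.

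The 2 routes were compared within TG mice, at 2 mg intranasally and 10 mM in the drinking water, doses that are not on a common scale. Intranasal treatment was higher for 3 members and lower for 7, with a median log2 fold change of -0.24 against 0.015 over all genes. None was called, as was true of 0% of all genes in edgeR and 0.152% in DESeq2. Lcn2 and Cp had an unadjusted p under 0.05, against 7.26%. Osmr and Cp were lower without overlap, against 9.14% of genes, and no member was higher, against 7.63%. Cp differed by -0.86 (-1.56 to -0.15; SE 0.333, adjusted p = 0.644, edgeR) and Osmr by -0.73 (-2.02 to 0.55).

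**Figure D3:**
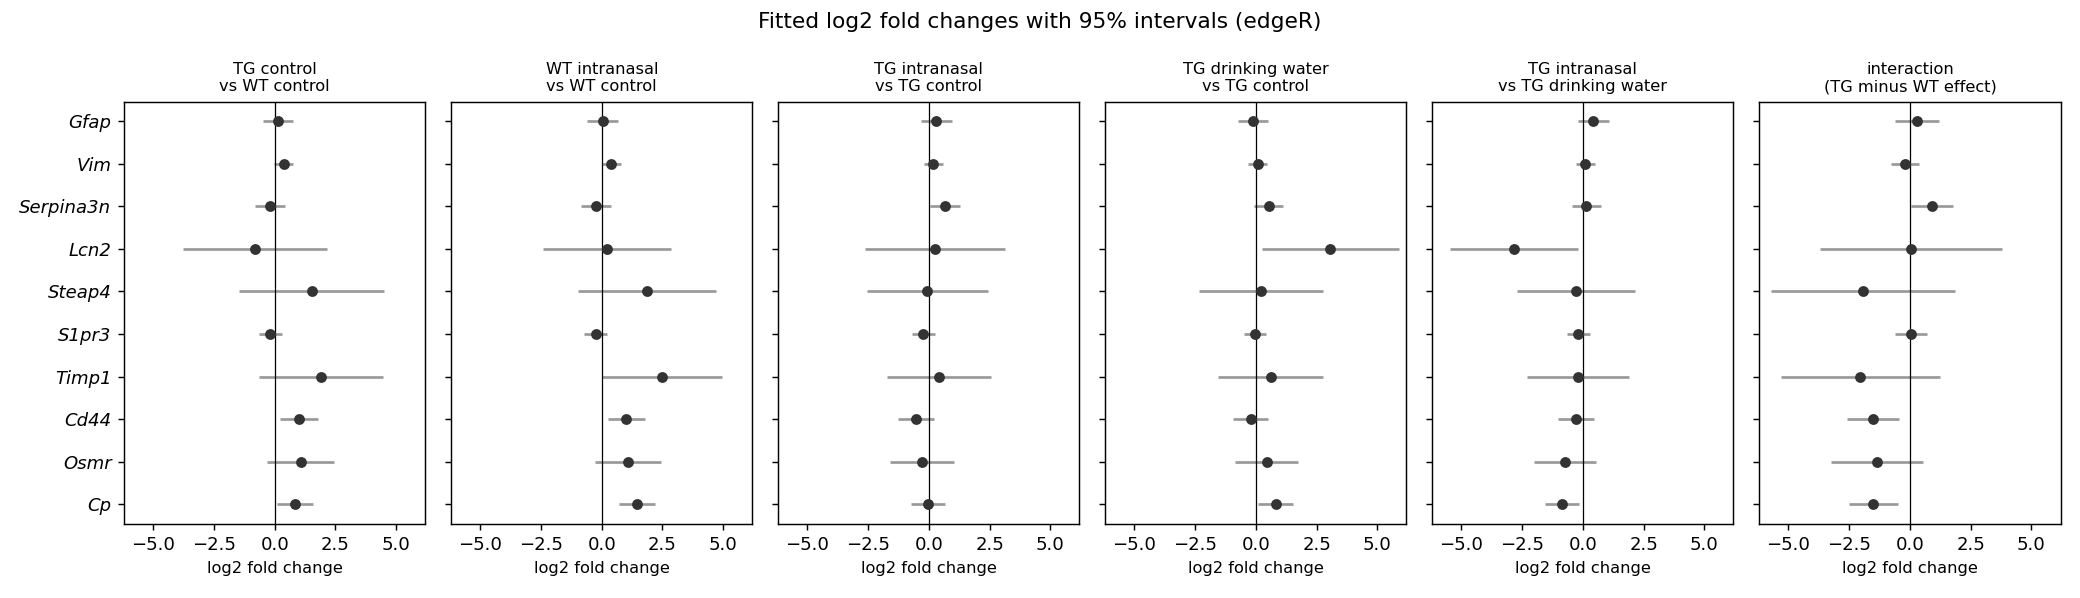
Fitted log2 fold change (horizontal axis) of each gene in the 6 comparisons, with 95% intervals from edgeR as grey lines and 0 as a vertical line. The intervals of Cp lie above 0 for WT intranasal (0.73 to 2.20) and below 0 for the interaction (-2.52 to -0.48), and those of Lcn2, Steap4 and Timp1 are the widest.

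Whether intranasal carnosine acted differently in TG and WT mice was tested as an interaction, the TG difference minus the WT difference. Of the members, 4 had a positive and 6 a negative interaction, with a median of -0.78 against -0.045 over all genes. None was called by edgeR, against 2.32% of genes (367 genes), and 3 had an unadjusted p under 0.05, against 28.6%. Cp had an interaction of -1.50 (SE 0.482, adjusted p = 0.0642) and Cd44 of -1.51 (SE 0.503, adjusted p = 0.071), both in edgeR. DESeq2 called these 2 members (adjusted p = 0.0251 and 0.0371), where it called 17.7% of the genes with an adjusted p and gave none for Lcn2, Steap4 and Timp1. Serpina3n went the other way, at 0.91 (SE 0.406, adjusted p = 0.153, edgeR). Without TG control 2 the Cp interaction was -0.75 (adjusted p = 0.211), and with a term for the set of libraries it was -0.70 (adjusted p = 0.518, edgeR).

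**Figure D4:**
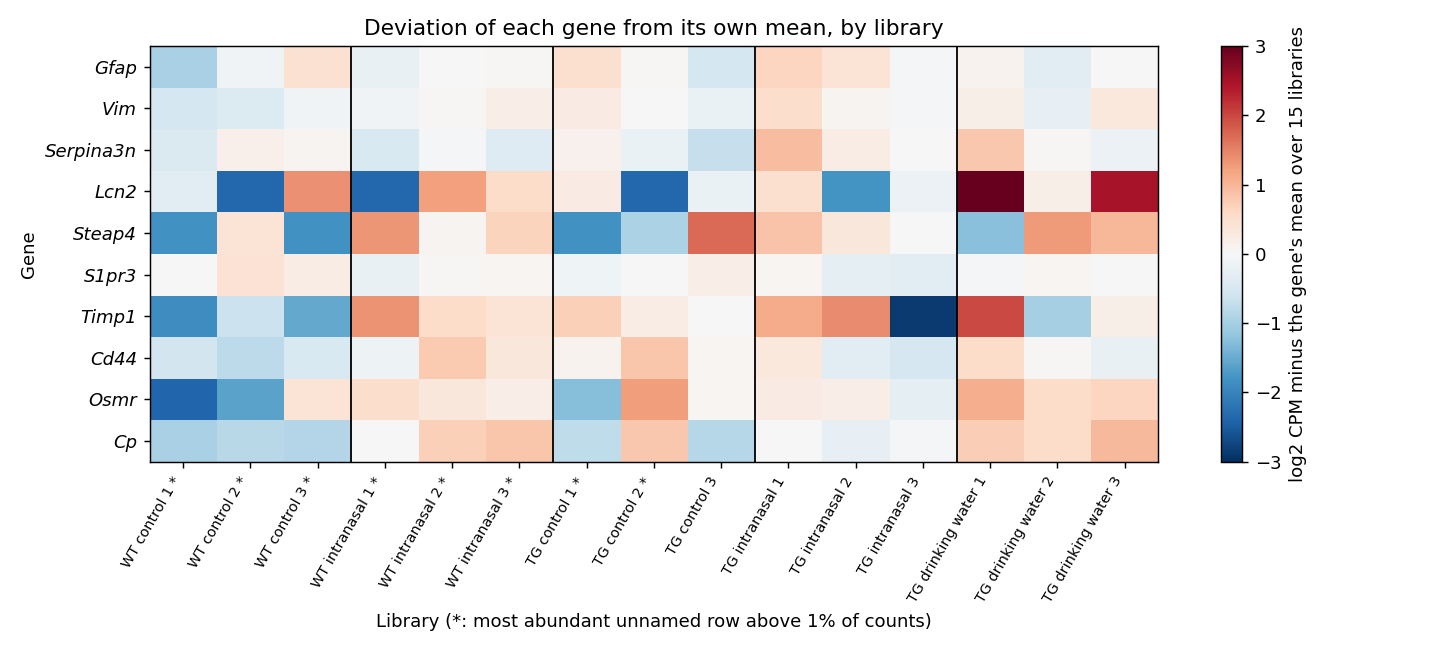
Each gene's log2 CPM minus its own mean over the 15 libraries (colour, limited to 3 in either direction), with libraries in columns by group and an asterisk on the 8 libraries whose most abundant unnamed row exceeds 1% of counts. Gfap, Vim and Serpina3n share their highest library, TG intranasal 1, while Lcn2, Steap4 and Timp1 vary most.

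The signalling chain upstream of the members was read from lists of 10 inducing ligands and 17 receptors and signalling genes. Only 5 ligands had enough counts to be tested, and Osm, Il6, Cntf, Il1b and Tnf did not. No ligand was called in any comparison by edgeR, or by DESeq2 where it gave an adjusted p. In edgeR 0 had an unadjusted p under 0.05, against 7.26% to 28.6% of all genes by comparison. The smallest p for genotype was that of Il1a (0.958 ± 0.610 CPM in TG control and 0.312 ± 0.282 in WT control). Among the receptors and signalling genes, 14 of 17 were higher in TG control and 14 of 17, not all the same genes, in WT intranasal than in WT control, which these comparisons share. None was called by edgeR in either. In each, 6 had an unadjusted p under 0.05, against 18.1% and 24% of all genes, and DESeq2 called 3 and 4 of the 16 with an adjusted p, against 3.19% and 10.8%. In the interaction 14 of 17 were negative, and 6 had an unadjusted p under 0.05 in edgeR, against 28.6% of all genes. DESeq2 called 4 of the 16 with an adjusted p, against 17.7%. EdgeR called 1, Il6st, against 2.32% of all genes. Il6st encodes gp130, the subunit that pairs with OSMR. Il6st was at 23.6, 37.5 and 38.4 CPM in WT control, 55.7, 80.1 and 85.1 in WT intranasal, 39.7, 107 and 49.9 in TG control, and 42.0, 42.9 and 46.4 in TG intranasal. TG control 2 was again the highest library, and the Il6st interaction of -1.73 (SE 0.403, adjusted p = 0.0487, edgeR) was -1.18 without it, at an adjusted p of 0.128, and -0.84 after correction for transcript length, at 0.104. With the term for the set of libraries it was -1.34 (adjusted p = 0.296, edgeR). The call was also lost without several other single libraries. Jak2 (0.66, adjusted p = 0.127) for genotype and Nfkb1 (0.66, adjusted p = 0.0565) for WT intranasal had the smallest p of this list in edgeR and did not pass in the main fit. DESeq2 called both (adjusted p = 0.0187 and 0.00963). With a block for replicate number edgeR did too (adjusted p = 0.0226 and 0.0262). In the TG comparisons the smallest p belonged to Cntfr for the intranasal route (-0.32, adjusted p = 0.51), Nfkbia for drinking water (0.94, adjusted p = 0.484) and Il6st between the routes (-0.71, adjusted p = 0.644), all in edgeR.

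Other reactive genes were read from 3 further lists. The pan-reactive list held Hspb1, Cxcl10 and Aspg, and none was called in any comparison by edgeR, or by DESeq2 where it gave an adjusted p. For TG drinking water against TG control DESeq2 gave 0 of the 3 an adjusted p. Hspb1 alone had an unadjusted p under 0.05 in edgeR, in both comparisons with the drinking water group. There, 8.07% (against TG control) and 7.26% (routes) of all genes had such a p. Of 11 genes tied to the neurotoxic-type response, 9 were higher in TG control and 7 in WT intranasal than in WT control. Serping1, the inhibitor of complement C1, was the 1 edgeR call, in WT intranasal, where 1.01% of all genes were called. Serping1 rose in WT intranasal from 5.90 ± 0.499 to 14.4 ± 3.97 CPM (SD, n = 3; log2 fold change 1.28, SE 0.295, adjusted p = 0.0472, edgeR). It lost the call without either WT intranasal 2 or WT intranasal 3 (adjusted p = 0.244 and 0.277, edgeR). The same held without WT control 1, 2 or 3 (adjusted p = 0.249, 0.0689 and 0.0572, edgeR). The call was also lost when the WT libraries were fitted alone (adjusted p = 0.0595) and with the term for the set of libraries (adjusted p = 0.0612), both in edgeR. Of 11 tested genes tied to the injury-type response, 9 were higher in TG control and 10 in WT intranasal than in WT control. None was called by edgeR, or by DESeq2 among the 7 with an adjusted p. In each, 1 had an unadjusted p under 0.05 in edgeR, against 18.1% and 24% of all genes. H2-D1, a class I histocompatibility gene, was at 31.0 ± 4.24 CPM in TG intranasal and 17.7 ± 4.77 in TG control (log2 fold change 0.81, SE 0.203, adjusted p = 0.51, edgeR), the smallest p of its list there. Without the 2 libraries rich in Gh this value was 0.98 (adjusted p = 0.0494, edgeR). The H2-D1 interaction was 0.96 (SE 0.287, adjusted p = 0.0558, edgeR). DESeq2 called that interaction (adjusted p = 0.0172), where it called 17.7% of the genes with an adjusted p.

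Partners of the members' products gave 1 edgeR call among 19 tested genes in the 6 comparisons, in the interaction, where 2.32% of all genes were called. There, 10 had an unadjusted p under 0.05 in edgeR (28.6% of all genes), and DESeq2 called 7 of the 17 with an adjusted p (17.7%). In WT intranasal the counts were 9 (24%) and 4 of 17 (10.8%), and for genotype 5 (18.1%) and 1 of 16 (3.19%). For TG intranasal, TG drinking water and the routes, 2, 0 and 1 had such a p, against 9.74%, 8.07% and 7.26% of all genes. DESeq2 called 0 in each, but for TG drinking water it gave an adjusted p to only 6 of the 19. Mmp14, a membrane metalloproteinase that cuts CD44, had an interaction of -1.92 (SE 0.435, adjusted p = 0.0487, edgeR), from 9.69, 8.97 and 9.04 CPM in WT control, 12.04, 19.1 and 21.1 in WT intranasal, 8.41, 21.8 and 8.47 in TG control, and 6.45, 6.52 and 6.22 in TG intranasal. TG control 2 was the highest library here as well, and without it the value was -1.32 (adjusted p = 0.128, edgeR). With the term for the set of libraries the Mmp14 call was also lost (-1.32, adjusted p = 0.299, edgeR). The same held with the compared groups alone (adjusted p = 0.0772), after correction for transcript length (adjusted p = 0.0945) and without several other single libraries, all in edgeR. Ftl1, which encodes the light chain of the iron store ferritin, had the smallest p for genotype (645 ± 191 against 1190 ± 293 CPM, log2 fold change -0.89, adjusted p = 0.151, edgeR). Mmp2, a gelatinase, had the smallest p for WT intranasal (1.55, adjusted p = 0.0608, edgeR). DESeq2 called Ftl1 for genotype (adjusted p = 0.0363) and Mmp2 for WT intranasal (adjusted p = 0.00686). With a block for replicate number edgeR called them too (adjusted p = 0.0159 and 0.0274).

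Resting astrocyte genes were set beside the reactive ones. Of 15, 11 were higher in TG control and 12 in WT intranasal than in WT control, and 13 were lower in TG intranasal and 15 in TG drinking water than in TG control, with none called by edgeR in these 4 comparisons. The counts at an unadjusted p under 0.05 were 4, 7, 8 and 5 in that order, against 18.1%, 24%, 9.74% and 8.07% of all genes, and DESeq2 called 1, in WT intranasal, against 10.8%. In the interaction 12 of 15 were negative, and 11 had an unadjusted p under 0.05 in edgeR, against 28.6% of all genes. DESeq2 called 8 of the 15, against 17.7%. EdgeR called 2, against 2.32% of all genes. These were the glutamate transporter gene Slc1a2 (-2.68, SE 0.665) and the bicarbonate cotransporter gene Slc4a4 (-2.13, SE 0.511), each at an adjusted p of 0.0487 in edgeR. Slc1a2 was at 466, 1293 and 1061 CPM in WT control, 1122, 2753 and 3186 in WT intranasal, 1159, 4879 and 1531 in TG control, and 916, 1118 and 919 in TG intranasal. WT intranasal 2 and 3 and TG control 2 were the highest libraries, as for Il6st and Mmp14. The 2 edgeR calls were lost without TG control 2 and without TG intranasal 1, among other libraries. With the term for the set of libraries neither gene passed (Slc1a2 -1.96, adjusted p = 0.3; Slc4a4 -1.36, adjusted p = 0.301; edgeR). Gfap and Vim had no such rise in TG control 2, at 827 and 73.3 CPM.

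Patterns over the 15 libraries were compared by the root mean square difference of centred log2 CPM, as a description without a test. The genes nearest to Gfap were Slc25a24 (0.264), Sass6 (0.265), Galm (0.272), Septin10 (0.275) and Pik3r6 (0.279), so that 2 of them lay closer to it than Vim at 0.268. Nearest to Serpina3n were Map3k6 (0.198), Tma16 (0.234), Hfe (0.289), Pter (0.298) and Morn1 (0.303). Among the members, Cp was nearest to Cd44 (0.532) and Osmr was nearest to Cp (0.676), and the widest gap was between Lcn2 and Steap4 (2.18). The SD of log2 CPM over libraries ran from 0.20 for S1pr3, lower than most tested genes at percentile 16.8, to 1.68 for Lcn2 at percentile 99.6.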

How the data were processed

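Midbrain total RNA was extracted with the mirVana kit and made into libraries by standard Illumina protocols, per the labels' protocols. The authors deposited raw whole-number counts per gene ID and library, with no normalization; alignment, counting software, build, annotation and use of strand are each not given in these sources. Columns were assigned through the sample descriptions in the labels. Symbols came from a RefSeq table of GRCm38.p6, which named 24374 of 24454 IDs. The other 80 IDs had no symbol, and their share ranged from 0.148% to 6.23% between libraries. They were not removed beforehand. Those that passed the filter on low counts entered the library sizes and the tests. Transcript lengths and overlapping genes came from GENCODE M21, and promoter windows from RefSeq.

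Counts were tested with edgeR 4.0.16 (R 4.3.3; TMM scaling, filterByExpr, glmQLFit and glmQLFTest) on group means of all 15 libraries, with Benjamini-Hochberg adjustment over 15818 genes and a threshold of 0.05. The common biological coefficient of variation was 0.244. CPM uses TMM-scaled library sizes over the tested genes, SE is the log2 fold change divided by the square root of F, and patterns use log2 CPM with a prior count of 2. Alternatives were DESeq2 1.42.0, whose independent filtering gave some genes no adjusted p (these count neither as called nor as uncalled), RLE scaling, no filter, the compared groups alone, a replicate block, a term for the 2 sets of libraries, leaving out the 2 libraries over 300 CPM of Gh, a length correction, and leaving out each library. The fit was tested on simulated data. Replicate libraries of a group differed beyond sampling noise.

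The 10 members and all gene lists were chosen with earlier results of these data known. All members are named in every comparison; of the lists on reactive and resting astrocytes, ligands, receptors and partners, called genes or examples of the smallest p; of other marker lists, called genes. Predicted genes are not named. Named outside this rule are Syn1 and Hps3 as overlapping genes, Serpina3g, Serpina3h and Serpina3m as related genes, Gh, and the 5 neutrophil genes, chosen after their values were seen.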

Additional observations from a re-analysis of the deposited data

How the results depend on the processing

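Under the alternatives, 10 member values crossed to a call, all of Cp or Cd44; since no member was called as reported, none could lose a call. The number of members called stayed at 0 for genotype, both carnosine comparisons in TG mice and the comparison of routes under every alternative run; DESeq2 gave no adjusted p for 4 members in genotype and 8 in TG drinking water, so it could not call those. For WT intranasal it was 1 (Cp) with DESeq2, with no filter and with the replicate block, and 0 to 1 as single libraries were left out. For the interaction it was 2 (Cp and Cd44) with DESeq2 and 1 (Cp) with no filter, and 0 to 2 as single libraries were left out.

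All genes called moved more, from 2, 159, 1, 1, 0 and 367 in the order genotype, WT intranasal, TG intranasal, TG drinking water, routes and interaction. DESeq2 called 416, 1442, 19, 187, 24 and 2422. With no filter there were 534 for WT intranasal, 5 for TG intranasal, 6 for TG drinking water and 1276 for the interaction, and RLE scaling gave 706 for the interaction. Fitting the compared groups alone gave 1, 2 and 0 for genotype, WT intranasal and TG intranasal, 1 for the routes and 0 for the interaction. The replicate block gave 531, 1587, 0, 2 and 2598 for genotype, WT intranasal, TG intranasal, TG drinking water and the interaction. The term for the set of libraries gave 0 for WT intranasal, 43 for TG drinking water and 0 for the interaction. Leaving out both libraries rich in Gh gave 0, 91, 188 and 669 for WT intranasal, TG intranasal, TG drinking water and the interaction, and the length correction gave 39, 2 and 1 for WT intranasal, TG drinking water and the interaction. As single libraries were left out, the counts ran from 0 to 960 for WT intranasal, 0 to 8 for TG intranasal and for TG drinking water, and 0 to 2389 for the interaction.

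The median log2 fold change of the members also moved. Fitting the compared groups alone left 7 members tested for genotype (median 0.38), 9 for WT intranasal (0.38) and 9 for the interaction (-0.19), since the filter dropped low ones. The replicate block gave 1.07 for WT intranasal and -1.14 for the interaction, and the term for the set of libraries gave 0.41 for genotype, 0.60 for TG drinking water and -0.46 for the interaction. As single libraries were left out, the medians ran from 0.20 to 0.90 for genotype, 0.48 to 1.19 for WT intranasal, -0.22 to 0.24 for TG intranasal, 0.11 to 0.39 for TG drinking water, -0.53 to -0.0787 for the routes and -1.43 to -0.0891 for the interaction. The cause of these moves was not tested.

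Not every same-numbered pair of libraries deviated together: 12 of 30 correlations of their deviations from group means exceeded 0.1 (range -0.202 to 0.242), against 10 of 60 for other numbers (-0.372 to 0.334). Those of number 2 ran from 0.002 to 0.224. The labels tie the numbers to no animal or batch, so the numbers are not treated as pairs. With the block, Cp in WT intranasal had an adjusted p of 0.0168 in edgeR. With 3 libraries a group, the low counts of Lcn2, Steap4, Timp1 and Osmr limit what could be detected.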

Other observations

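Other cell types showed the following beside the reactive astrocyte genes, by counts over their lists and with no gene called by edgeR in any of the lists named here. All 7 microglia genes had positive log2 fold changes in TG control against WT control, with a median of 0.58. Of these, 4 had an unadjusted p under 0.05 in edgeR, against 18.1% of all genes, and DESeq2 called 2, against 3.19%. In WT intranasal against the same WT controls, 6 of the 7 were positive (median 0.43). There, 3 had an unadjusted p under 0.05 in edgeR, against 24%, and DESeq2 called 2, against 10.8%. All 5 oligodendrocyte genes were negative in TG control against WT control (median -0.27) and in WT intranasal against WT control (median -0.41). In either, 0 had an unadjusted p under 0.05 in edgeR, against 18.1% and 24% of all genes, and DESeq2 called 0. All 5 midbrain dopamine neuron genes were positive in TG drinking water against TG control, with a median of 0.94 and summed levels of 256 to 409 CPM against 172 to 338 CPM. Of these, 1 had an unadjusted p under 0.05 in edgeR, against 8.07% of all genes, and DESeq2 gave an adjusted p for 1 and called 0. All 5 mural cell genes were positive in the same comparison (median 0.86), 2 of them at an unadjusted p under 0.05 in edgeR, against 8.07% of all genes. DESeq2 gave an adjusted p for 1 and called 0.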
